A study of Sus scrofa with 4 samples.

Results

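The genes described here store, build and burn fat in the porcine oocyte. They are PLIN2 and PLIN3 of the lipid droplet coat, the lipase gene PNPLA2, the fatty acid synthesis genes ACACA, FASN and SCD, the carnitine shuttle genes CPT1A and CPT2, and the acyl-CoA dehydrogenase genes ACADM and ACADL. They were chosen by gene symbol from the expression table, 10 of 30684 rows, of which 16050 rows hold values. Values were given for 9 of the 10 genes, and CPT1A was listed without values. The libraries came from oocytes matured in vitro for 44 h to metaphase II. They were cultured either without added Cu (Control replicates 1 and 2) or with 25 μg/mL Cu, added as copper sulfate to the maturation medium (Cu replicates 1 and 3). Both groups shared a medium with porcine follicular fluid, EGF, insulin, hCG and eCG. The cumulus-oocyte complexes came from slaughterhouse ovaries, and each library pooled 3 oocytes, so a library is not a single cell or a single animal. The dose, the culture time and the number of oocytes are those the study describes. Its methods name 3 sets per group, and 4 libraries were analysed here. Nothing in the labels says whether replicates came from separate cultures, so p-values measure only the spread between these libraries.

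Porcine oocytes are rich in fat, which is kept as triglyceride in lipid droplets under a protein coat of perilipins. Lipases release fatty acids from the droplet, the carnitine shuttle carries them into the mitochondrion, and beta-oxidation, which opens with an acyl-CoA dehydrogenase, shortens them to acetyl-CoA. In the other direction acetyl-CoA carboxylase and fatty acid synthase build palmitate, and elongases and desaturases modify it. In mammals, blocking beta-oxidation during maturation is known to impair the oocyte and its later development.

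Expression was given as FPKM, fragments scaled to transcript length and library size, which allows levels of different genes to be compared per length. The study's methods name oligo dT priming of the cDNA. A level therefore depends also on capture through the poly(A) tail, which was not measured apart. The depth of each library is unknown. Of 15 oocyte markers 14 had values, and 13 were at 1 FPKM or more in every library, with a summed level of 5798 to 7686 FPKM in Control, 9970 in Cu 1 and 6998 in Cu 3. Of 20 cumulus and granulosa cell markers 13 had values, 10 stayed under 1 FPKM in every library and AMH was listed at 0 in all 4. Their sum of 20.2 to 28.2 FPKM in Control, 29.5 in Cu 1 and 20.6 in Cu 3 was mostly FST and GATA4. Both adipocyte markers with values were at 0.05 FPKM or less, and of 5 blood and immune markers the 2 with values summed to 2 FPKM in Cu 1 and to 0.31 FPKM or less elsewhere. Of the 5 copper response markers 4 had values, with a summed level of 10 to 15.1 FPKM in Control, 24.6 in Cu 1 and 16.2 in Cu 3. Most of this difference lay in MT3, a metallothionein gene with 8.1 and 1.91 FPKM in Control against 19.6 and 9.87 in Cu, whereas MT1A, another, had 5.97 and 7 FPKM in Control against 3.31 and 4.44 in Cu. MT-2B, a further metallothionein gene chosen after its values were seen, was at 1512 and 1238 FPKM in Control against 2830 and 2816 in Cu, a log2 fold change of 1.04 (limma, adjusted p = 0.631). None of the tested markers passed an adjusted p of 0.05, and the part of their levels in the results for the lipid genes was not tested. Cu 1 stood apart, with 9364 genes at 1 FPKM or more against 7923 to 8162 in the other libraries. It was the highest of the 4 libraries in 51% and the lowest in 19.1% of the 8541 genes tested, those that reached 1 FPKM in no fewer than 2 libraries, so values without Cu 1 are given beside the results that rest on it.

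The levels of the members spanned from PLIN2, at a mean of 195 FPKM over the 4 libraries, to FASN at 0.01 FPKM. PLIN2 lay above 97.0% of the 16050 genes with values and ACADM, at a mean of 89.9 FPKM, above 94.4%. ACACA followed at 9.55 FPKM, then CPT2 at 4.17, SCD at 2.16, PNPLA2 at 1.23, ACADL at 0.85 and PLIN3 at 0.42 FPKM. The ranges over the 4 libraries did not overlap between PLIN2 and ACADM, between ACADM and ACACA, between ACACA and CPT2, or between PLIN3 and FASN. From CPT2 down to PLIN3 the range of each gene overlapped that of the next in the order. Compared within libraries, SCD was above PNPLA2 in all 4, while the order of the other neighbours was not the same in every library. In a pool of oocytes, more oocytes with a transcript and more transcript per oocyte cannot be told apart. PLIN2 and ACADM were thus abundant, and the other members were not.

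**Figure D1:**
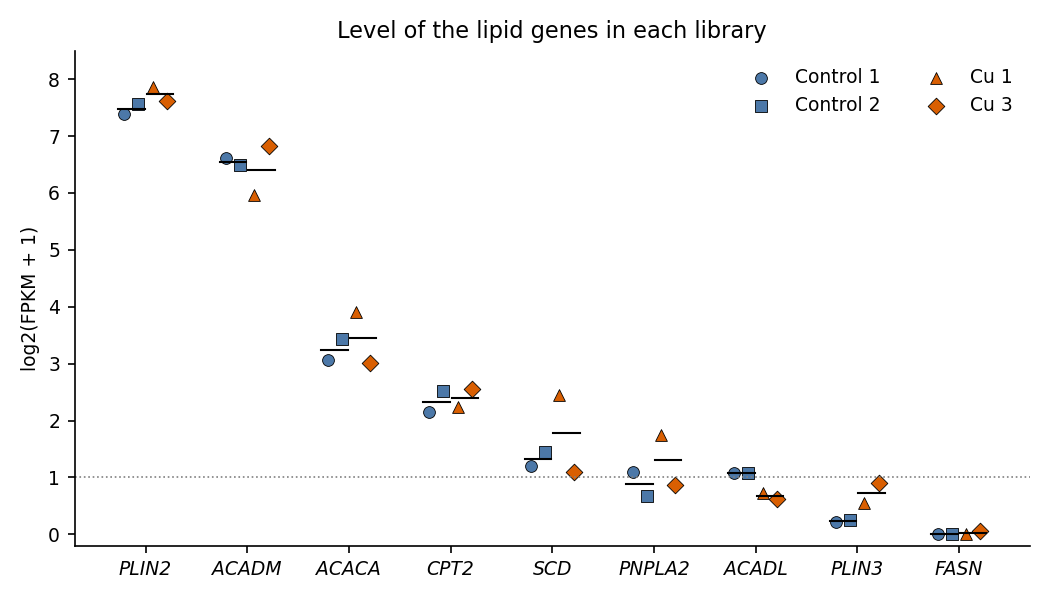
Level of the 9 members with values, as log2(FPKM + 1), in each of the 4 libraries. Points are libraries, horizontal bars the mean of the 2 libraries of a group, and the dotted line is 1 FPKM. PLIN2 and ACADM lie far above the rest in every library, and the Cu 1 triangle is the highest point for PLIN2, ACACA, SCD and PNPLA2 and the lowest for ACADM.

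PLIN2 encodes perilipin 2, the droplet coat protein of most cells that do not specialise in fat storage (identifier 397402; Sscrofa11.1 chr1:203683867-203709277). It had 167 and 188 FPKM in Control 1 and 2, a mean of 178 ± 15.1 (SD, n = 2), and 230.5 and 195 FPKM in Cu 1 and 3, a mean of 213 ± 25.1 (SD, n = 2). Each Cu library exceeded each Control library, by a gap smaller than the spread within either group. The log2 fold change, here always Cu minus Control on the log2(FPKM + 1) scale, was 0.26 with a standard error of 0.27 and a 95% interval of -0.40 to 0.92 (limma, adjusted p = 0.838). Its direction held in all 11 alternatives, though only at 0.01 after median-of-ratios scaling. Some of the 11 could not alter it, because changing the filter or dropping the variance trend leaves the estimate as it is. The groups overlapped after median-of-ratios scaling and after quantile normalization.

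PLIN3, a perilipin that moves between cytosol and young droplets (identifier 595103; chr2:73970149-73995314), was at 0.16 and 0.19 FPKM in Control against 0.47 and 0.86 in Cu 1 and 3. Each Cu library exceeded each Control library, but at less than 1 FPKM throughout, so the gene did not enter the test. Without the filter on low values its log2 fold change was 0.49 with a standard error of 0.17 (limma, adjusted p = 0.818). PLIN4 was listed without values. Within the 4 perilipin genes with values, PLIN1, PLIN2, PLIN3 and PLIN5, PLIN2 made up 99.2% and 99.7% of the summed FPKM in Control 1 and 2 and 98.3% and 98.9% in Cu 1 and 3. PLIN2 thus made up nearly all of the summed FPKM of these 4 genes in either group.

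PNPLA2 encodes adipose triglyceride lipase, which takes the first fatty acid off a triglyceride (identifier 100049704; chr2:513065-517962). It was at 1.13 and 0.59 FPKM in Control against 2.36 and 0.82 in Cu 1 and 3. Only Cu 1 was above the Control range, and Cu 3 lay within it. Its fold change on the log2 scale was 0.43 with a standard error of 0.42 and an interval of -0.61 to 1.47 (limma, adjusted p = 0.830), and it was -0.016 without Cu 1. The ratio of PLIN2 to PNPLA2 FPKM was 148 and 319 in Control and 97.7 and 238 in Cu 1 and 3, and these ratios overlap between the groups.

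ACACA encodes acetyl-CoA carboxylase, which makes malonyl-CoA and so commits carbon to fatty acids (identifier 397324; chr12:38580916-38875067). Control 1 and 2 held 7.35 and 9.8 FPKM of it, Cu 1 and 3 held 14.0 and 7.04 FPKM. The Cu libraries lay on opposite sides of the Control libraries. A log2 fold change of 0.21 had a standard error of 0.44 and an interval of -0.87 to 1.29 (limma, adjusted p = 0.926). It turned to -0.24 without Cu 1, to -0.044 after quantile normalization and to -0.017 after median-of-ratios scaling.

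SCD encodes stearoyl-CoA desaturase, which places the first double bond in saturated chains (identifier 396670; chr14:111461560-111478033). Its level was 1.31 and 1.72 FPKM in Control and 4.48 and 1.13 FPKM in Cu 1 and 3. Cu 1 was thus 3.96 times Cu 3, while the Control libraries differed by a ratio of 1.31. In the fit, the log2 fold change was 0.45 with a standard error of 0.52 and an interval of -0.83 to 1.72 (limma, adjusted p = 0.850). Without Cu 1 it was -0.23, and without Cu 3 it was 1.13.

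FASN, the fatty acid synthase gene (identifier 397561; chr12:922405-937560), was listed at 0 in Control 1, Control 2 and Cu 1 and at 0.04 FPKM in Cu 3. It was not tested. The authors' mean FPKM, which covers 3 libraries per group, was 0 for Control and 0.013 for Cu. ACACA, whose product FASN uses, was at 7.04 FPKM or more in the same libraries. How few FASN fragments could have been seen cannot be said, because the depth is unknown.

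The carnitine shuttle joins a long-chain fatty acid to carnitine at the outer mitochondrial membrane, by CPT1, and releases it inside, by CPT2. CPT1A, the isoform of liver and many other tissues (identifier 399527; chr2:4250642-4293914), was listed without values. The other isoforms belong to the wider lipid list, and their values are given because CPT1A has none: CPT1B had at most 0.21 FPKM in any library and CPT1C was listed at 0 in all 4. CPT2 (identifier 100519491; chr6:159038129-159061327) was at 3.44 and 4.72 FPKM in Control against 3.7 and 4.84 in Cu 1 and 3. The groups overlapped almost fully, with a log2 fold change of 0.056, a standard error of 0.38 and an interval of -0.86 to 0.98 (limma, adjusted p = 0.979). The sign of this value changed in 4 of 11 alternatives, some of which, the other filters and no variance trend, could not alter it.

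ACADM encodes the medium-chain acyl-CoA dehydrogenase, which opens beta-oxidation for chains of middle length (identifier 397104; chr6:137541481-137575544). It had 96.7 and 88.6 FPKM in Control 1 and 2, a mean of 92.7 ± 5.73 (SD, n = 2), and 61.7 and 112 FPKM in Cu 1 and 3, a mean of 87.1 ± 35.8 (SD, n = 2). The Cu libraries enclosed the Control libraries, Cu 1 as the lowest and Cu 3 as the highest. For ACADM this gave a log2 fold change of -0.15 with a standard error of 0.37 and an interval of -1.06 to 0.76 (limma, adjusted p = 0.939). Without Cu 1 it was 0.28, and without Cu 3 it was -0.58.

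ACADL, the long-chain acyl-CoA dehydrogenase gene (identifier 396931; chr15:112935631-112969381), was at 1.11 and 1.1 FPKM in Control against 0.65 and 0.54 in Cu 1 and 3. Each Cu library was below each Control library, and the libraries of a group were close to each other. ACADL passed the limit of 1 FPKM in 2 libraries only through Control, the group in which it was higher, so its place among the tested genes is not independent of that difference. The log2 fold change was -0.40 with a standard error of 0.31 and an interval of -1.16 to 0.36 (limma, adjusted p = 0.790). It stayed between -0.80 and -0.35 in all 10 alternatives that gave a value, though a changed filter or variance trend could not alter it. The authors' means were 1.48 FPKM for Control and 0.60 FPKM for Cu.

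The ratio of ACADM to ACADL FPKM was 87.1 and 80.6 in Control 1 and 2 and 94.95 and 208 in Cu 1 and 3. Among ACADS, ACADM, ACADL and ACADVL, dehydrogenases of straight chains, ACADM held 96.0% and 97.4% of the summed FPKM in Control and 94.0% and 98.4% in Cu 1 and 3. The medium-chain gene thus made up nearly all of the summed FPKM of these genes in either group, and its share overlapped between the groups. ACAD11 and ACAD9, also acyl-CoA dehydrogenase genes of the wider list, were left out of this sum. ACAD11 had 10.4 and 9.46 FPKM in Control and 8.43 and 5.78 in Cu 1 and 3. ACAD9 had 0.76 and 1.17 FPKM in Control and 4.12 and 0.82 in Cu 1 and 3.

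Over all 8541 genes tested, limma called 0 at an adjusted p of 0.05 (0%), the smallest adjusted p was 0.631, and 599 genes (7.01%) had an unadjusted p of 0.05 or less. With a log2 fold change of 1.5 as a further limit, 1.76% of the tested genes were higher and 0.117% lower in Cu. Without Cu 1, 186 genes passed an adjusted p of 0.05, and without Cu 3, 1755 did, in fits that assume that the remaining Cu library varies like Control, and no member was among them. Of the 7 tested members 0 had an unadjusted p of 0.05 or less, and the smallest, 0.244, belonged to ACADL. PLIN3 and FASN were under the filter and CPT1A had no values, so these 3 are outside the counts. A log2 fold change above 0 was found in 5 of the 7, beside 64.3% of all tested genes. The Cu libraries lay entirely above Control in 1 member, PLIN2, beside 25.4% of all tested genes, and entirely below in 1, ACADL, beside 13.4%. ACADL entered the test only through Control, where it was higher, so this count and its place as the smallest p are not independent of the filter. The median log2 fold change was 0.21 for the 7 and 0.16 for all tested genes. For a single gene, the smallest two-sided p that exact permutation of 4 libraries allows is 0.333.

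**Figure D2:**
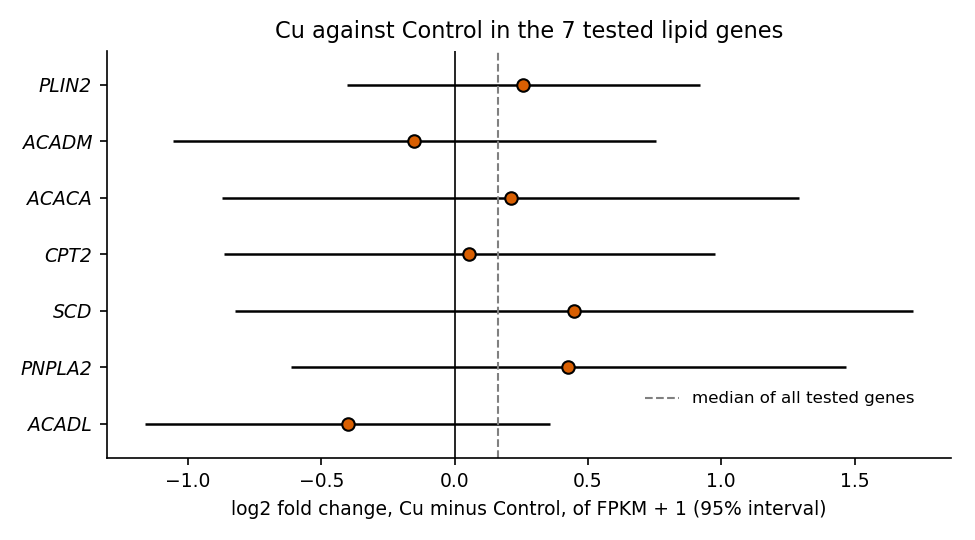
Log2 fold change (Cu minus Control, of FPKM + 1) of the 7 tested members, ordered by mean level. Points are limma estimates, lines their 95% intervals, the solid vertical line is 0 and the dashed line the median of all tested genes, 0.16. Every interval includes 0 and the median of all genes.

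The intervals show what 2 libraries per group could resolve. For PLIN2, the tested member with the smallest standard error, a log2 fold change above 0.92 or below -0.40 lay outside the 95% interval, and for SCD only values above 1.72 or below -0.83 did. Cu 1 was the highest of the 4 libraries in 4 of the 7 tested members and the lowest in 1, beside 51% and 19.1% of all tested genes. Without Cu 1, the log2 fold changes of ACACA, SCD, PNPLA2 and ACADM changed sign and the median of the 7 was -0.016, while that of all tested genes was 0.0023. PLIN2, CPT2 and ACADL kept their sign without Cu 1, at 0.14, 0.21 and -0.45. Quantile normalization moved the median of all tested genes by -0.23 and median-of-ratios scaling by -0.21. Relative to the median of all genes in the deposited scaling, PLIN2 was higher by 0.094, ACACA by 0.048, SCD by 0.28 and PNPLA2 by 0.26, and the relative values were -0.11 for CPT2, -0.31 for ACADM and -0.56 for ACADL.

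**Figure D3:**
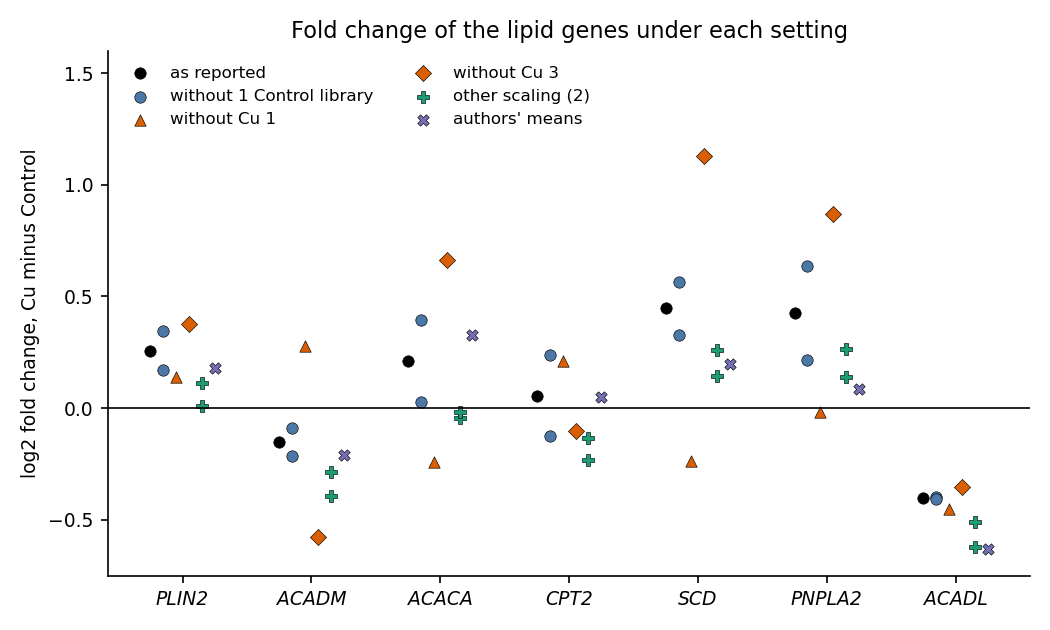
Log2 fold change (Cu minus Control) of the 7 tested members as reported, without each library, under quantile normalization and median-of-ratios scaling, and from the authors' mean FPKM of 3 libraries per group. Each point is 1 setting, and the horizontal line is 0. ACADL stays below 0 and PLIN2 above 0 in every setting drawn, and the triangles, without Cu 1, cross 0 for ACADM, ACACA, SCD and PNPLA2.

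A wider list of lipid genes, 131 genes in 9 roles, placed the members in their pathways. Of these, 121 had values and 72 were tested, with a median log2 fold change of 0.22, beside 0.16 for all tested genes. In Cu 50 were higher, or 69.4% beside 64.3% of all tested genes, and 22 were lower. Without Cu 1 the median was 0.033, beside 0.0023 for all tested genes. An unadjusted p of 0.05 or less was reached by 3 genes upward, FABP5, PPARD and ACAT1, and by 1 downward, HSD17B12, together 5.56% beside 7.01% of all tested genes, of which 5.58% were upward and 1.43% downward. None of the 72 passed limma's test at an adjusted p of 0.05. The Cu libraries lay entirely above Control in 18 of the 72 and entirely below in 8, together 36.1% beside 38.8% of all tested genes. VLDLR and GPAM, 2 of the 18, reached 1 FPKM only in Cu, the group in which they were higher, so their place in the count is not independent of the filter. Under quantile normalization, median-of-ratios scaling or both, the medians of the whole wider list and of the roles of triglyceride synthesis, fatty acid synthesis, mitochondrial and peroxisomal beta-oxidation turned negative, to values as low as -0.19, and those of lipolysis and the carnitine shuttle, negative as reported, lay between -0.32 and -0.25, where the median of all tested genes was -0.068 and -0.042. Those of the coat genes, the regulators and the uptake genes stayed above 0.

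FABP5, a carrier of fatty acids in the cytosol, was at 2.74 and 2.03 FPKM in Control but at 8.59 and 9.19 FPKM in Cu 1 and 3. The Cu libraries were close to each other and apart from Control, with a log2 fold change of 1.55 (standard error 0.36, limma, adjusted p = 0.631), the only gene of the list past 1.5. The authors' means, over 3 libraries, were 4.15 FPKM for Control and 6.60 FPKM for Cu, a log2 difference of 0.56. The authors' Control mean lay above both Control libraries and their Cu mean below both Cu libraries. The separation of the groups is thus shown only for the libraries with values. With 1 of these libraries left out, the log2 fold change of FABP5 ranged from 1.40 to 1.71. FABP3, the related carrier of heart and muscle, was far more abundant, and was chosen after its values were seen. It was at 489 and 395 FPKM in Control against 646 and 651 FPKM in Cu, for a log2 fold change of 0.56 (standard error 0.25), and the authors' means were closer, at 560 FPKM for Control and 607 FPKM for Cu. For the 12 tested genes of uptake, binding and activation the median was 0.43, and 0.58 without Cu 1. Of the 12, 10 were higher in Cu, VLDLR among them, and 2 lower, beside 64.3% of all tested genes that were higher.

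PPARD, a nuclear receptor that responds to fatty acids, was at 1.71 and 2.37 FPKM in Control against 7.68 and 3.87 in Cu 1 and 3, for a log2 fold change of 1.11 (standard error 0.43, limma, adjusted p = 0.677). It was 0.69 without Cu 1, and 1.52 without Cu 3. The 9 tested lipid regulators had a median of 0.55, or 0.17 without Cu 1. Of the 9, 7 were highest in Cu 1, beside 51% of all tested genes.

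HSD17B12, the reductase of the chain elongation cycle, was at 161 and 182 FPKM in Control against 103 and 98.9 in Cu 1 and 3, for a log2 fold change of -0.76 (standard error 0.27, limma, adjusted p = 0.656). In all 11 alternatives it was -0.44 or lower, though a changed filter or variance trend could not alter it. The 14 tested genes of synthesis, elongation and desaturation had a median of 0.16, or -0.17 without Cu 1. Of the 14, 9 were higher and 5 lower, beside 64.3% of all tested genes that were higher. ACAT1, the mitochondrial thiolase of ketone body and isoleucine metabolism, was at 9.1 and 7.5 FPKM in Control against 16.9 and 17.5 in Cu, for a log2 fold change of 0.97 (standard error 0.34, limma, adjusted p = 0.656), and the authors' means give a log2 difference of 0.41. The 13 tested genes of mitochondrial beta-oxidation had a median of 0.076, or -0.28 without Cu 1. Among them 8 were higher and 5 lower, beside the same 64.3% of all tested genes.

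In the other roles no gene reached an unadjusted p of 0.05, and the most abundant gene is given for 4 of them. HILPDA, a droplet protein that inhibits the lipase of PNPLA2, was at 222 and 205 FPKM in Control against 400 and 135 in Cu 1 and 3, so that the Cu libraries enclosed Control. Its log2 fold change of 0.12 was -0.12 after median-of-ratios scaling, -0.66 without Cu 1 and 0.90 without Cu 3. The 5 tested coat genes of the wider list had a median of 0.40 on the log2 scale, or 0.16 without Cu 1. LPIN2, a phosphatidate phosphatase of triglyceride synthesis, had 14.1 and 13.4 FPKM in Control and 15.3 and 12.03 in Cu, and the 7 tested genes of this role had a median of 0.18, or 0.031 without Cu 1. DDHD2, a lipase, was at 30.4 and 43.0 FPKM in Control against 33.8 and 28.2 in Cu, and the 4 tested lipolysis genes had a median of -0.056, or -0.42 without Cu 1. CROT, which makes carnitine esters in the peroxisome, was at 35.4 and 70.1 FPKM in Control against 38.6 and 77.5 in Cu. It was 1 of 2 tested carnitine shuttle genes of the wider list, whose median was -0.085, or -0.048 without Cu 1 and -0.12 without Cu 3. The 6 tested genes of peroxisomal beta-oxidation had a median of 0.16, or 0.085 without Cu 1. The groups overlapped in HILPDA, LPIN2, DDHD2 and CROT.

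**Figure D4:**
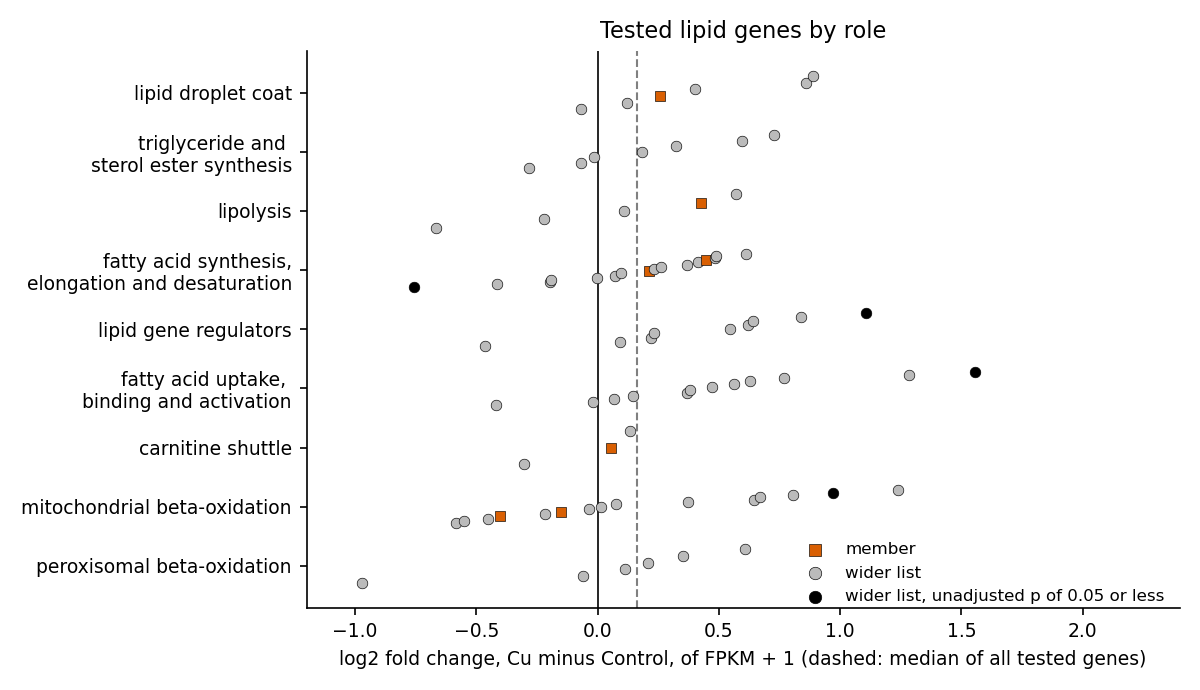
Log2 fold change (Cu minus Control, of FPKM + 1) of the 79 tested lipid genes by role. Squares are the 7 tested members, grey circles the wider list and black circles its 4 genes with an unadjusted p of 0.05 or less, the solid line is 0 and the dashed line the median of all tested genes. Each role with more than 1 tested gene spreads to both sides of 0, and the members lie inside the range of their role.

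For 6 of the 7 tested members, the genes of both lists with the most similar values over the 4 libraries were taken by the distance between centred log2(FPKM + 1) values, among 78 other genes. For ACADM this was ETFA, the flavoprotein subunit that takes the electrons of the acyl-CoA dehydrogenases, with 1632 and 1378 FPKM in Control and 1083 and 1536 FPKM in Cu 1 and 3 (distance 0.27). For ACADL it was HADHB, a subunit of the trifunctional protein of long-chain oxidation, with 39.7 and 39.1 FPKM in Control and 28.8 and 24.5 FPKM in Cu (distance 0.18). For PLIN2 it was GPAM (0.15), for PNPLA2 SCAP (0.18), for SCD ACAD9 (0.22) and for ACACA SLC27A3 (0.25). With 4 libraries such likeness is a description of these libraries, and low levels make distances small.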

How the data were processed

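RNA of 4 porcine oocyte libraries was amplified by Smart-seq2. The deposited table gives FPKM per gene, as computed by the authors, rounded to 2 decimals, with a mean FPKM of each group. In all 16050 genes, 3 times that mean was a whole number of hundredths (within 0.01), as for 3 libraries, and it is printed only as the authors' mean. The study's methods name HISAT2, Bowtie2 and RSEM, whereas the submitters' processing notes name TopHat2 2.0.13, Cufflinks 2.2.1 and Sscrofa11.1, so which of them made the table is not settled. Coordinates are those of RefSeq genes of Sscrofa11.1, matched by identifier. No sequences were used here. FPKM keep no read number, so no interval of counting error is given, and a value of 0 is called listed at 0.

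The fit used log2(FPKM + 1) of genes that reached 1 FPKM in no fewer than 2 libraries, with limma 3.58.1 in R 4.3.3 (eBayes with a variance trend, two-sided, Benjamini-Hochberg adjustment over 8541 genes). The study's count-based test cannot be applied to FPKM. The fit was run on simulated data with the same noise in every gene and library and with added changes larger than those of the members. Cu 1 stood apart in the real data, so the simulation says nothing about the results for the members. The added 1 makes fold changes of weakly expressed genes smaller. The members and lists were chosen with earlier results of these data known. Named were all members, of each role of the wider list up to 3 genes per direction with the smallest unadjusted p of 0.05 or less or else the most abundant tested gene, and the nearest gene of each tested member, except that 1 gene of the wider list is counted in the lists but not reported here. Any other gene is said to have been chosen after seeing its values. Marker lists were written by hand for oocytes, cumulus and granulosa cells, blood and immune cells, adipocytes and copper response. Alternatives were a pseudocount of 0.1, other filters and scalings, no variance trend, leaving out each library and, added after the data were seen, the authors' means.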

Additional observations from a re-analysis of the deposited data

How the results depend on the processing

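No paired analysis was possible because the groups share only replicate number 1. Depth is unknown, and every member with values other than PLIN2, ACADM and ACACA had a mean under 5 FPKM. Of the 7 tested members, none passed an adjusted p of 0.05 in any alternative. When 1 library was left out its partner stood alone and was assumed to vary like the other group. The count of genes past an adjusted p of 0.05 then ranged from 0 to 1755 (186 without Cu 1, 1755 without Cu 3), that of genes within an unadjusted p of 0.05 whose log2 fold change reached 1.5 from 77 to 741 higher, against 150 in the fit reported, and from 11 to 41 lower, against 10. In the same fits the members' median ranged from -0.016 to 0.38 and that of the wider list from 0.033 to 0.35. A lone library separates from a pair more easily by construction, so members with separate groups are not counted for these fits. Counts of genes in these fits are not comparable with those of the reported fit. The log2 fold change ranged from 0.14 to 0.38 for PLIN2, -0.58 to 0.28 for ACADM, -0.24 to 0.66 for ACACA, -0.13 to 0.24 for CPT2, -0.23 to 1.13 for SCD, -0.016 to 0.87 for PNPLA2, -0.45 to -0.35 for ACADL, -0.36 to 0.63 for CROT, -0.18 to 0.15 for LPIN2, -0.47 to 0.024 for DDHD2 and -0.66 to 0.90 for HILPDA.

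A pseudocount of 0.1 gave 246 genes higher and 24 lower past both limits. Quantile normalization gave 22 lower and median-of-ratios scaling 24 lower. The members' median was -0.044 and -0.017 under these scalings, with ACACA at -0.044 and -0.017, CPT2 at -0.23 and -0.13, and CROT at -0.024 and -0.11. HILPDA was at -0.12 under median-of-ratios scaling and at -0.10 by the authors' means. Without a filter 2 members, PLIN2 and PLIN3, were above. With 1 FPKM required in every library ACADL and PNPLA2 were not tested, and 0 members were below. The cause of these changes was not tested beyond the construction of each setting. In all, 188 of the recomputed values were classed as unchanged. For fold changes this meant the same direction and side of the threshold, and for counts a ratio within a set factor. For medians it meant a move smaller than the spread of library medians within groups. That of the wider list, -0.0041 under quantile normalization, was therefore classed as unchanged. A change of sign was counted only for fold changes of single genes, 20 in all, and 23 counts or medians moved. The other 4, fold changes of FABP5, PPARD and HILPDA with a Cu library left out, kept their sign and were classed apart.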

Other observations

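Several enzymes of the wider lipid list work with a partner, and the genes of partners were at unequal levels. These genes were chosen after their values were seen. ETFA and ETFB encode the subunits of the electron transfer flavoprotein, which passes electrons from ACADM and ACADL to the respiratory chain. ETFA had 1632 and 1378 FPKM in Control and 1083 and 1536 FPKM in Cu 1 and 3, whereas ETFB had 0.54 and 0.48 FPKM in Control and 2.66 and 0.59 FPKM in Cu. HADHA and HADHB encode the subunits of the mitochondrial trifunctional protein. HADHB was below Control in both Cu libraries, with 39.7 and 39.1 FPKM in Control and 28.8 and 24.5 FPKM in Cu, a log2 fold change of -0.55 (standard error 0.31). HADHA had 5.26 and 5.41 FPKM in Control, 34.4 FPKM in Cu 1 and 5.31 FPKM in Cu 3, a log2 fold change of 1.24 (standard error 0.79), with Cu 3 between the Control libraries. In the elongation cycle HSD17B12 and HACD2 had 61.1 FPKM or more in Control while TECR, the last enzyme of the cycle, had 2.56 and 2.07 FPKM in Control, 12.9 FPKM in Cu 1 and 0.39 FPKM in Cu 3.

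Among single genes of a family, ELOVL6, the elongase that acts on palmitate, held 76.9% to 81.9% of the FPKM of the 7 elongase genes in the 4 libraries. ACSL3, an acyl-CoA synthetase of growing droplets, held 95.9% and 93.1% of the FPKM of the 5 long-chain acyl-CoA synthetase genes in Control and 83.8% and 93.5% in Cu 1 and 3. DBI, the acyl-CoA binding protein gene, was the most abundant gene of both lists, with 1988 and 1687 FPKM in Control and 2236 and 2546 FPKM in Cu. The authors' means of DBI, over 3 libraries, were 2904 FPKM for Control and 2085 FPKM for Cu, the opposite order.

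Cu 1 was at least 2 times every other library in 16 of the 79 tested lipid genes (20.3%) and in 14.3% of all tested genes, among them the members SCD and PNPLA2. Cu 3 was so in 0.843% of all tested genes, and the Control libraries in 0.129% and 0.316%. The part of Cu 1 in the results of the lipid genes was not tested beyond leaving out Cu 1.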
